A study of Mus musculus with 24 samples.

Results

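A Flag antibody and a Foxa3 antibody were set side by side in 1 line of induced hepatocyte-like (iHep) cells. Line 4a3 was made from C57BL/6 mouse embryonic fibroblasts of embryonic day 13.5 by infection with Foxa3 and Hnf4alpha, and all 4 libraries described here carry both introduced factors. Chromatin immunoprecipitation and sequencing was done once with a Flag antibody and 3 times with a Foxa3 antibody. The rule that picks the libraries uses line and antibody and no peak value, and they make up 4 of the 14 deposited peak lists in a series of 24 samples. They hold 6492 of 26332 peaks. The Flag library (b2 in its title) carries the term EGS and a run code. Foxa3 library 1 also carries EGS and the same run code, and Foxa3 library 3 carries EGS and another run code. Foxa3 library 2 carries neither and is called non-EGS here. The labels do not spell out EGS, do not say what b2 stands for, which protein carries the Flag tag or whether the line is 1 clone, and do not say that the numbered libraries are separate inductions. Lines 4a1 and 4a2, used for comparison, were made from the same kind of fibroblasts with Foxa1 and Hnf4alpha and with Foxa2 and Hnf4alpha, and each was immunoprecipitated with the antibody to its own Foxa factor. Hepatocytes came from livers of adult C57BL/6 mice aged 10 weeks. Peak lists hold no expression values, so cell type could not be checked against marker genes.

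The Foxa family of forkhead transcription factors acts in the liver and other endodermal tissues, and its members have closely related DNA-binding domains. They are known as pioneer factors, able to bind DNA in closed chromatin, and Hnf4alpha is a nuclear receptor that works with them in hepatocytes. Flag is a short peptide tag fused to a protein, so that a tag antibody can pull down that protein without an antibody to the protein itself. A peak list gives the places where sequenced fragments pile up, which include sites bound by the protein and any other places that the antibody or the method enriches. The comparison asks how far the tag antibody and the factor's own antibody mark the same places in the same line.

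The Flag list held 883 peaks. The Foxa3 lists held 1246 peaks (EGS 1), 46 peaks (EGS 3) and 4317 peaks (non-EGS). Sharing was taken as an overlap of 1 bp or more between peaks of different lists. Of the Flag peaks, 281 (31.8%, 28.8 to 35.01) overlapped a Foxa3 peak in at least 1 of the 3 lists, and 602 (68.2%) did not. Bracketed ranges of shares are 95% Clopper-Pearson limits, which are exact and reflect counting alone. Nearby peaks are not independent, so the true uncertainty is wider. For a background, 12815 merged regions from the 6 Foxa1 and Foxa2 lists of lines 4a1 and 4a2 were compared with the same Foxa3 lists, and 6.2% of them held a Foxa3 peak of line 4a3. The Flag share thus lay above that of these pooled regions, of which 9412 were in only 1 of the 6 lists. It also lay above the shares of regions in 2 lists (6.92%, 5.91 to 8.05) and in 3 lists (23.5%, 20.2 to 27.1). It did not lie above those of regions in 4, 5 and 6 lists, where a Foxa3 peak was present in 32.9%, 55.4% and 58.4%. With 1 Flag library against 3 Foxa3 libraries the smallest one-sided exact permutation p is 0.25, so no test across libraries was run.

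Foxa3 EGS 1, from the same run, held 170 Flag peaks (19.3%, 16.7 to 22.01, against 2.29% of the regions of the other lines). The non-EGS list, which is longer, held 194 (22.0%, 19.3 to 24.8, against 4.9%). Foxa3 EGS 3 held 1 (0.113%, against 0.0078%), and leaving it out moved no total. Both longer lists held 83 Flag peaks, EGS 1 without the non-EGS list 87, and the non-EGS list without EGS 1 111. Fewer Flag peaks were thus in both longer lists than in 1 of them alone. Read the other way, 174 peaks of EGS 1 (14.0%, 12.1 to 16.01) and 193 of the non-EGS list (4.47%, 3.87 to 5.13) lay under a Flag peak, where 4.18% of the regions of the other lines did. The share of the non-EGS list was near that background. For the 46 peaks of EGS 3 the count was 1 (2.17%, 0.055 to 11.5).

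Flag peaks were found as often or more often in single lists of the other lines, which were made with other introduced factors and other antibodies. Foxa1 EGS 1 of line 4a1, with 940 peaks, held 29.0% (26.02 to 32.1) of the Flag peaks. Foxa2 EGS 1 and EGS 2 of line 4a2, with 957 and 1040 peaks, held 25.9% (23.1 to 28.96) and 29.2% (26.2 to 32.3). These 3 intervals lie above that of Foxa3 EGS 1, a longer list from the same run as the Flag library. All are shares of the same Flag peaks of 1 library, so the intervals are not independent and their comparison is no test. Foxa1 EGS 2 of line 4a1, with 542 peaks, held 18.5% (15.95 to 21.2). When each list was reduced to its 300 highest-scoring peaks, Foxa3 EGS 1 held 15.3% (11.4 to 19.9) of the Flag peaks, Foxa3 non-EGS 6.0% (3.59 to 9.32) and the 6 Foxa1 and Foxa2 lists between 19.0% and 32.3%. At this equal length the interval of Foxa3 EGS 1 overlapped those of most of these lists and lay below that of Foxa1 EGS 1 (27.1 to 37.9).

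The order of peaks within the Flag list made a large difference. Flag scores are on another scale than Foxa3 scores (the lowest is 50, against values just above 5), so only ranks were used, with rank 1 the highest score of a list. In the top quintile of the Flag list, 112 peaks (63.6%, 56.1 to 70.7) overlapped a Foxa3 peak. The share was 35.03% in the next quintile, then 23.3% and 19.8%, and 17.5% (12.2 to 23.9) in the lowest, a difference of 46.1 percentage points (36.2 to 54.98) between the ends. For Foxa3 EGS 1 alone the share fell from 49.4% to 6.21%, and for the non-EGS list from 40.3% to 14.1%. Without EGS 1 the difference between the ends was 26.2 points. Higher-ranked Flag peaks were also wider, with a median of 352 bp in the top quintile and 187 bp in the lowest. With every peak of every list cut to its central 150 bp the shares were 58.0% and 14.7%. The cut evens the length over which peaks can overlap, not the width at which they were called. By width in place of score the shares were 48.3% in the widest quintile and 14.7% in the narrowest. Score and width went together in the Flag list (Spearman's rho 0.672), and rank was not compared among peaks of equal called width.

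At the very top the overlap depended on which list was read first. Of the 10 highest Flag peaks, 9 overlapped a peak of Foxa3 EGS 1, and of the 20 highest, 17 did (85.0%, 62.1 to 96.8). The non-EGS list held 11 of those 20. Of the 20 highest peaks of Foxa3 EGS 1, 1 overlapped a Flag peak (5.0%, 0.127 to 24.9), and of the 20 highest of the non-EGS list, 3 did (15.0%, 3.21 to 37.9). Those leading Foxa3 peaks were found by the other Foxa3 library in 20 of 20 cases in each direction. The 20 highest EGS 1 peaks included 1 with a Foxa1 or Foxa2 peak of the other lines and 15 with a peak of the Foxa3 list of adult hepatocytes. By contrast, 14 and 17 of the 20 highest peaks of the Foxa1 EGS lists, and 9 and 18 of the Foxa2 EGS lists, overlapped a Flag peak.

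Over the whole Foxa3 lists, rank was read in the same way. In EGS 1 the share with a Flag peak was 19.7% (14.9 to 25.2) in the top quintile and 13.2% (9.26 to 18.04) in the lowest. The difference of 6.48 points has an interval of -0.30 to 13.2, which includes 0. EGS 1 has only 143 distinct scores for its 1246 peaks, so the borders of its quintiles cut through ties, which were broken by position. With ties in reverse order, tried after the data had been seen, the difference was 7.28 points (0.506 to 14.03), and between the ends of 3 equal groups it was 7.74 points (2.77 to 12.7), both above 0. With ranks by width it was -0.35 points (-6.48 to 5.78). Whether EGS 1 showed a difference by rank thus depended on how the list was ordered and divided. In the non-EGS list the share was 7.76% (6.07 to 9.75) in the top quintile and 1.85% (1.06 to 2.99) in the lowest. That difference of 5.91 points (3.87 to 8.05) went the same way as in the Flag list.

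**Figure D1:**
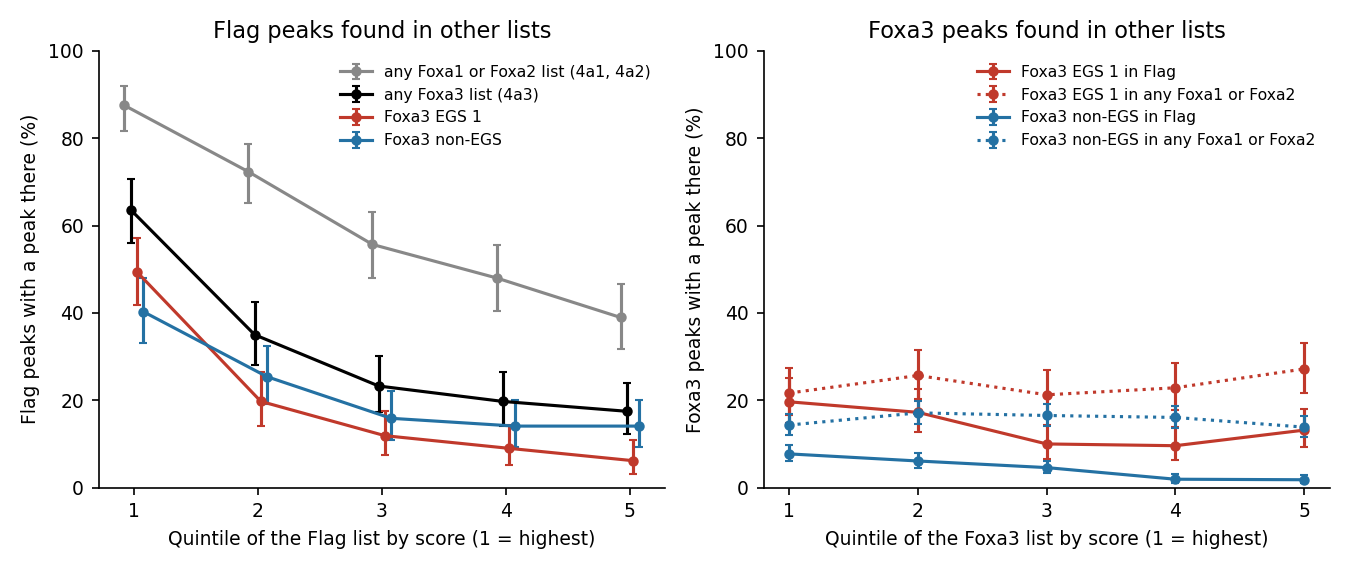
Share of peaks (%) with an overlapping peak in other lists, by quintile of score rank (1 = highest). Left, 883 Flag peaks of line 4a3. Right, 1246 Foxa3 EGS 1 and 4317 Foxa3 non-EGS peaks. Points are shares and bars exact 95% intervals over peaks. The share of Flag peaks in any Foxa3 list falls from 63.6% to 17.5%, while the curves of the Foxa3 lists, for Flag (solid) and for Foxa1 or Foxa2 (dotted), stay between 1.85% and 27.2%.

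Foxa3 peaks found by Flag were mostly those where the other lines also had a Foxa peak. Of the 296 EGS 1 peaks with a Foxa1 or Foxa2 peak in line 4a1 or 4a2, 153 (51.7%, 45.8 to 57.5) overlapped a Flag peak. Of the 950 without one, 21 did (2.21%, 1.37 to 3.36). In the non-EGS list the shares were 23.1% (20.01 to 26.5) of 674 peaks and 1.02% (0.716 to 1.397) of 3643. The differences were 49.5 points (43.5 to 55.4) and 22.1 points (19.0 to 25.5). With only the EGS lists of the other lines the differences were 56.2 and 35.2 points, and with the 300 highest peaks of each list 69.9 and 52.6 points. This split was looked at after the data had been seen. Leaving out any 1 of the 6 Foxa1 and Foxa2 lists kept the EGS 1 difference between 48.7 and 53.3 points. For the non-EGS list it was 33.6 points without the Foxa2 non-EGS list, which holds 11408 peaks.

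The same held for Foxa3 sites that both longer lists found. The EGS 1 and non-EGS lists shared 531 merged regions of line 4a3. A Flag peak was present in 90 of them, and 77 of these 90 (85.6%, 76.6 to 92.1) also held a Foxa1 or Foxa2 peak of another line. Of the 441 without a Flag peak, 54 did (12.2%, 9.33 to 15.7). Whether another Foxa3 list of the line held the peak went with Flag in 1 list and not in the other. Of EGS 1 peaks found in another Foxa3 list, 12.9% (10.4 to 15.7) overlapped a Flag peak, against 15.1% (12.3 to 18.2) of those found in none. For non-EGS peaks the shares were 15.96% (12.99 to 19.3) and 2.81% (2.31 to 3.39). Among EGS 1 peaks found in another Foxa3 list the share was 58.4% (49.2 to 67.1) with a Foxa1 or Foxa2 peak and 1.76% (0.808 to 3.32) without, and among such non-EGS peaks it was 57.8% (48.8 to 66.5) and 3.12% (1.67 to 5.27).

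Foxa3 peaks in this line often lie in dense runs, defined here as at least 5 peaks of a list that each follow the one before within 5 kb. EGS 1 has 31 runs with 255 peaks (20.5%, 18.3 to 22.8), EGS 3 has 2 runs with 15 peaks (32.6%, 19.5 to 48.02) and the non-EGS list 126 runs with 928 peaks (21.5%, 20.3 to 22.8). The Flag list has 1 run with 7 peaks (0.793%, 0.319 to 1.63). Of the Flag peaks, 10.6% had a neighbour within 5 kb, against 44.5% in EGS 1, 67.4% in EGS 3 and 56.4% in the non-EGS list. The Flag peaks were thus spread out where Foxa3 peaks were grouped. List length and the splitting of broad signal both bear on this. Among the 883 highest peaks of each list, runs held 15.4% (13.1 to 17.95) of EGS 1 and 5.78% (4.33 to 7.52) of the non-EGS list. Among the 300 highest they held 3.67% of EGS 1 and none of the Flag and non-EGS peaks, and after merging peaks within 1 kb they held 1.38%, 0.871% and 0% of the EGS 1, non-EGS and Flag peaks.

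Few EGS 1 peaks in runs overlapped a Flag peak, in a split that was also added after the data had been seen. Of its 255 run peaks, 2 overlapped a Flag peak (0.784%, 0.0951 to 2.80), against 172 of the 991 others (17.4%, 15.05 to 19.9). In the non-EGS list 24 of 928 run peaks did (2.59%, 1.66 to 3.82), against 169 of 3389 (4.99%, 4.28 to 5.77), and that difference turned to -1.36 points when peaks within 1 kb were merged. Most run peaks had no Foxa1 or Foxa2 peak either, 244 of 255 in EGS 1 and 856 of 928 in the non-EGS list. Among peaks without such a partner the Flag share was low in and out of runs: 0.82% (0.0994 to 2.93) against 2.69% (1.63 to 4.17) in EGS 1, and 1.29% (0.643 to 2.29) against 0.933% (0.610 to 1.36) in the non-EGS list. These intervals overlap. Among EGS 1 peaks with a Foxa1 or Foxa2 peak, 0 of 11 in runs (0 to 28.5) and 153 of 285 outside (53.7%, 47.7 to 59.6) overlapped a Flag peak. These intervals do not overlap, but peaks of a run lie close together. The 11 are thus not independent, and their true interval is wider. Among non-EGS peaks with such a partner, 18.1% (9.98 to 28.9) of 72 in runs and 23.8% (20.4 to 27.4) of 602 outside did, with overlapping intervals.

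**Figure D2:**
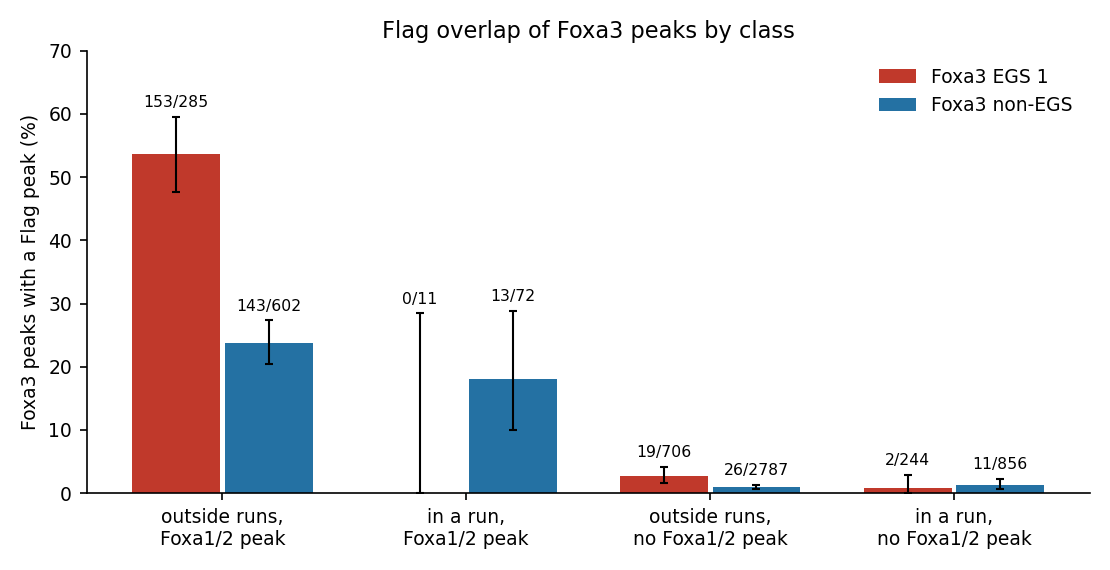
Share of Foxa3 peaks of line 4a3 (%) that overlap a Flag peak, by whether they lie in a dense run and whether a Foxa1 or Foxa2 list of lines 4a1 or 4a2 holds a peak there. Bars are shares, lines exact 95% intervals, and the numbers above give the count over the class size. Peaks with a Foxa1 or Foxa2 peak outside runs reach 53.7% (EGS 1) and 23.8% (non-EGS), and both classes without one stay at or below 2.69%.

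The longest Foxa3 runs are given by place (mm9, starts counted from 1). In EGS 1 the longest, on chromosome 19 from 5831371 to 5845425, has 22 EGS 1 peaks, 6 EGS 3 peaks and 10 non-EGS peaks, and no Flag peak. The next, on chromosome 17 from 33908122 to 33918401, has 20 EGS 1 and 4 non-EGS peaks and no Flag peak. On chromosome 11, from 86389651 to 86400410, 16 EGS 1 peaks stand beside 1 Flag peak. In the non-EGS list the longest run, on chromosome 6 from 52171874 to 52211547, has 34 peaks, with none in the other 3 lists of the line or in the Foxa1, Foxa2 and hepatocyte lists. The next 3 non-EGS runs, of 30, 19 and 18 peaks, hold 1, 2 and 1 Flag peaks. All 126 non-EGS runs together span 786 kb, and 29 Flag peaks (3.28%, 2.21 to 4.68) lie within 21 of them. The 31 EGS 1 runs span 222 kb, and 6 Flag peaks (0.68%, 0.25 to 1.47) lie within 6 of them. Of these 6 peaks, 2 overlap an EGS 1 peak.

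The Flag list has its own grouped places. Its single run, on chromosome 6 from 47622062 to 47635675, has 7 peaks of 539 to 759 bp at Flag ranks 144 to 580. It is part of a looser cluster of 16 Flag peaks over 118 kb (47604757 to 47722517), in which no peak overlaps a Foxa3, Foxa1, Foxa2 or hepatocyte peak. Inside the run the count of Flag peaks with a Foxa3 peak was 0 of 7, which allows up to 40.96% by the exact interval. A second loose cluster, 8 Flag peaks on chromosome 5 from 99659992 to 99758072, has 3 with a Foxa3 peak and 6 with a Foxa1 or Foxa2 peak.

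Over the whole lists, Flag peaks were wider than Foxa3 peaks. The median width was 233 bp (quartiles 197 and 297.5) in the Flag list, 149 bp (117 and 208) in EGS 1, 147.5 bp in EGS 3 and 180 bp (141 and 262) in the non-EGS list. At equal list length Flag peaks stayed wider than EGS 1 peaks but were narrower than non-EGS peaks. Among the 883 highest peaks of each list the medians were 233 bp (Flag), 153 bp (EGS 1) and 287 bp (non-EGS). Among the 300 highest they were 313.5, 206 and 442.5 bp. The labels and notes do not say whether the 4 lists were called with the same settings, so these differences cannot be told apart from differences in calling. Flag peaks shared with a Foxa3 list had a median of 270 bp and the others 220 bp, a difference of 50 bp (interval 32.5 to 60.0). In EGS 1 the shared peaks were no wider than the rest (145 and 150 bp), and in the non-EGS list the medians were 209 and 178 bp. Where a Flag and an EGS 1 peak overlapped, the Flag peak was 1.93 times as wide in the median and held the EGS 1 peak whole in 132 of 175 pairs (75.4%). Their midpoints were 38.5 bp apart in the median (quartiles 17.8 and 68.0). For the non-EGS list the ratio was 1.30 and the midpoints were 52.0 bp apart.

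**Figure D3:**
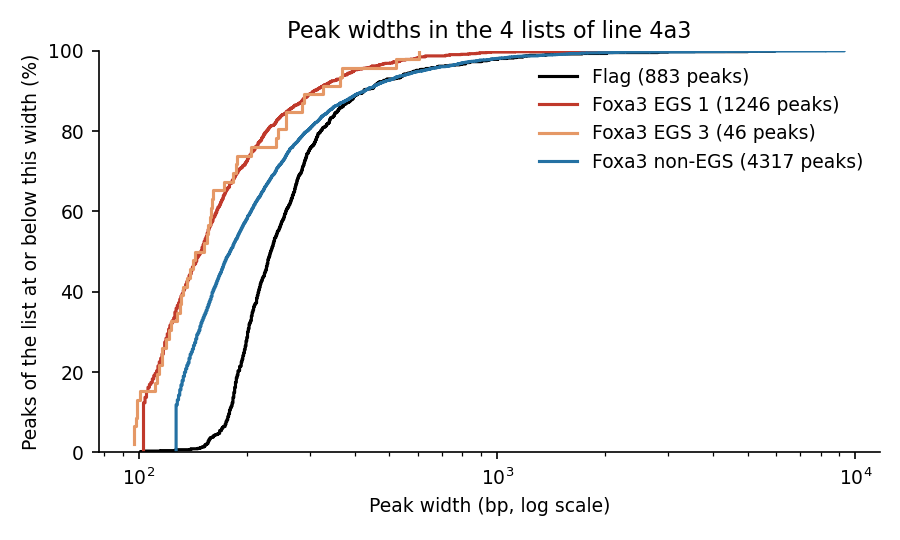
Cumulative share of peaks (%) at or below a given width (bp, log scale) in the 4 lists of line 4a3. The Flag curve lies to the right of the Foxa3 curves between the quartiles, with medians of 233 bp against 149, 147.5 and 180 bp.

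The very wide Flag peaks were a mixed group. Of the 19 Flag peaks over 1 kb, 3 overlapped a Foxa3 peak (15.8%, 3.38 to 39.6, an interval that holds the 31.8% of all Flag peaks), 6 a Foxa1 or Foxa2 peak and 7 a hepatocyte peak, and 10 overlapped none of these. The widest, 5953 bp on chromosome 17 from 39979833 to 39985785, has Flag rank 1. It covers 3 EGS 1 peaks, and 3 of the 6 Foxa1 and Foxa2 lists, all 3 hepatocyte lists and the Flag list of line 4a2 have peaks in it. The second widest, 5004 bp on chromosome X from 166439777 to 166444780, has Flag rank 20 and no peak in any other list. Without the 19 wide peaks the share of Flag peaks with a Foxa3 peak was 32.2%.

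At sites that both antibodies found, ranks agreed weakly. Over the 169 merged regions in Flag and EGS 1, Spearman's rho between the percentiles of score was 0.347, and over the 192 in Flag and the non-EGS list it was 0.103. These are descriptions across regions of 2 libraries, which are not independent replicates, and regions not called in both lists are missing from them. With the 300 highest peaks of each list rho for EGS 1 was 0.109 over 46 regions. For the 6 Foxa1 and Foxa2 lists rho lay between 0.174 and 0.345. The shared EGS 1 regions stood at a median percentile of 80.4 in the Flag list and of 63.0 in EGS 1. For the regions shared with the non-EGS list the medians were 68.2 in the Flag list and 68.8 in the non-EGS list.

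**Figure D4:**
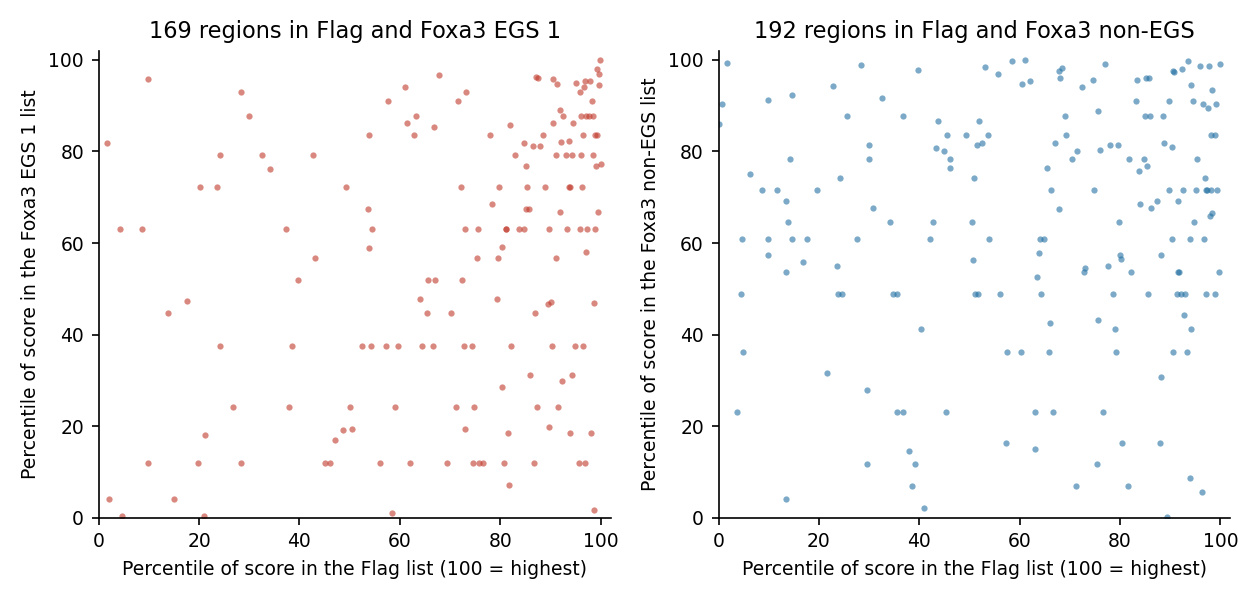
Percentile of score (100 = highest) in the Flag list against that in Foxa3 EGS 1 (left, 169 merged regions) and Foxa3 non-EGS (right, 192). Each point is a region with a peak in both lists, and rows of points at 1 height are tied Foxa3 scores. Points gather at high Flag percentiles on the left (rho 0.347) and scatter widely on the right (rho 0.103).

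Split by partner, the Flag list fell into 4 groups. There were 232 peaks (26.3%, 23.4 to 29.3) with a Foxa3 peak in the line and a Foxa1 or Foxa2 peak in another. These had the highest ranks (median percentile 76.2) and widths (median 278 bp). Another 49 peaks (5.55%, 4.13 to 7.27) had a Foxa3 peak only, at a median percentile of 39.8. A Foxa1 or Foxa2 peak without a Foxa3 peak was present at 302 (34.2%, 31.1 to 37.4), at a median percentile of 52.1. The last 300 (34.0%, 30.9 to 37.2) had no Foxa peak of any iHep line, at a median percentile of 33.3 and a width of 205.5 bp. The share with no Foxa peak was 9.09% in the top quintile and 54.8% in the lowest. Most Flag peaks with a Foxa3 peak were thus sites of other lines too, 232 of 281. This was also true of the whole Flag list, with 534 of 883 (60.5%), while of the 602 peaks without a Foxa3 peak 302 were such sites. Flag sites of the third group rested in part on the long Foxa2 non-EGS list of line 4a2: without it the share was 26.5%, and with EGS lists alone 21.5%.

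Seen from the other lines, the shares with a Flag peak and with a Foxa3 peak of line 4a3 both climbed with the number of lists that held a region. Of the 12815 regions of lines 4a1 and 4a2, those in 1 of the 6 lists held a Flag peak in 1.23% (1.02 to 1.48) of cases and a Foxa3 peak in 2.74% (2.42 to 3.09). Both shares were higher in each step up to the 89 regions in all 6 lists, where they were 70.8% (60.2 to 79.9) for Flag and 58.4% (47.5 to 68.8) for Foxa3. At regions in 3 of the 6 lists Foxa3, with its 3 lists, had the larger share, 23.5% (20.2 to 27.1) against 15.8% (13.0 to 19.0). At the regions in all 6 the intervals overlapped. Regions in more lists are unions of more peaks, and region width was not held fixed. Its part in the climb was not tested.

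**Figure D5:**
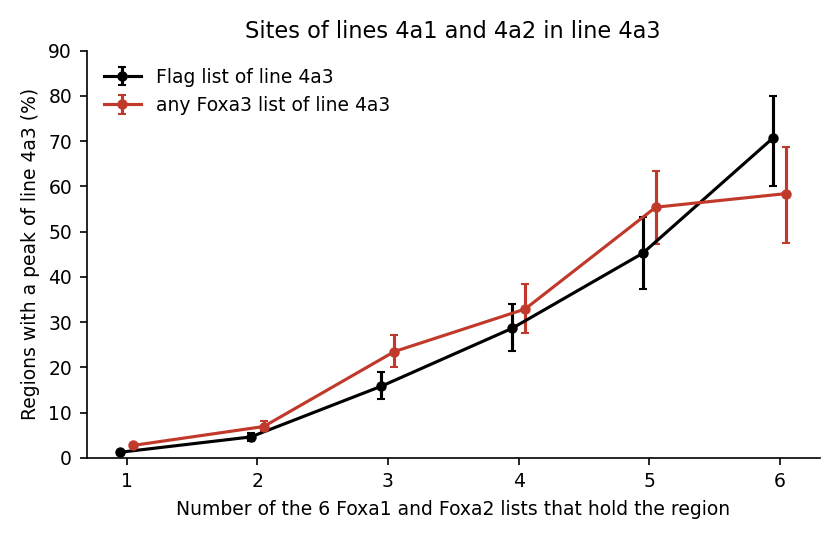
Share of regions of lines 4a1 and 4a2 (%) that hold a Flag peak or a Foxa3 peak of line 4a3, by the number of the 6 Foxa1 and Foxa2 lists that hold the region. Bars are exact 95% intervals over 9412, 2253, 600, 304, 157 and 89 regions. Both curves climb, to 70.8% for Flag and 58.4% for Foxa3.

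Flag peaks without a Foxa3 peak were seldom near misses. Of the 602, 28 (4.65%, 3.11 to 6.65) lay within 500 bp of a Foxa3 peak and 96 (15.9%) within 10 kb, and the median distance to the nearest was 146 kb.

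Single regions were chosen by rule, and coordinates are mm9. Merged regions with a peak in all 4 lists of the line numbered 3. The first, on chromosome 17 from 35848274 to 35849137, has rank 2 in Flag, 1 in EGS 1, 1 in EGS 3 and 39 in the non-EGS list. All 6 Foxa1 and Foxa2 lists and the Flag list of line 4a2 also hold it. That on chromosome 3 from 96043178 to 96044656 has ranks 285, 44, 8 and 107 in that order and no Foxa1 or Foxa2 peak. That on chromosome 19 from 5794621 to 5803924 joins a narrow Flag peak of rank 870 to a non-EGS peak of 9304 bp, which lies over a dense run. In the last 2 the Flag and EGS 3 peaks are joined by a wide peak and do not touch.

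After the region on chromosome 17, the 4 next regions by mean percentile in Flag, EGS 1 and non-EGS were all found in the other lines as well. On chromosome 13 from 41447639 to 41448058 the ranks were 8, 25 and 411, in the order Flag, EGS 1, non-EGS. On chromosome 9 from 62939134 to 62939520 they were 37, 94 and 60, and on chromosome 8 from 96910402 to 96911794 they were 21, 167 and 55. All 6 Foxa1 and Foxa2 lists hold these 3 regions. On chromosome 3 from 90416555 to 90422388 the ranks were 58, 131 and 14, and 5 of the 6 lists hold the region, in which the non-EGS peak is 5834 bp wide. The Flag list of line 4a2 also has a peak there. These ranks come from lists of 883, 1246 and 4317 peaks, so they are not compared between lists.

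The highest Flag peaks without a Foxa3 peak were mixed. Rank 6, 2810 bp on chromosome 10 from 7232502 to 7235311, is in all 3 hepatocyte lists, 1 Foxa1 list and 1 Foxa2 list. Rank 20 is the 5004 bp peak on chromosome X. Rank 22, 2022 bp on chromosome 8 from 19923743 to 19925764, is in 1 hepatocyte list and in the Flag list of line 4a2. Rank 24, 336 bp on chromosome 3 from 83669134 to 83669469, is in all 6 Foxa1 and Foxa2 lists, and rank 34, 1006 bp on chromosome 6 from 3150678 to 3151683, is in no other list. Of these 5, 4 are over 1 kb wide.

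The leading Foxa3 regions without a Flag peak were of another kind. On chromosome 12 from 55810556 to 55812270 the EGS 1 rank was 3 and the non-EGS rank 4, and on the same chromosome from 55839190 to 55839835 they were 4 and 3. On chromosome 11 from 101506278 to 101507869 they were 2 and 11, and from 101502462 to 101503988 they were 7 and 5. On chromosome 5 from 125868973 to 125870437 they were 6 and 22. All 5 lie in a dense run of 2 of the Foxa3 lists, hold a peak in 1 hepatocyte list and have no Foxa1 or Foxa2 peak. No gene was assigned to any region, since the annotation used here is of another build.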

How the data were processed

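Each of the 4 lists, and each of the other 10 used for comparison, is a deposited text file with chromosome, start, end, peak name and a score per peak. The authors' score has no stated scale. The submitters' processing notes name mm9 as the build, MACS2 (2.1.0), BWA (0.6.2) and bedtools (2.16.2), without their roles or settings. How the 10 input libraries entered is not given in the sources used here. Lists were taken as called on single libraries, since each file belongs to 1. Library depth is unknown, and list length is not depth.

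Overlap, ranks, runs and exact intervals were computed in Python (3.11.15) with scipy (1.17.1), pandas (2.3.3) and numpy (2.4.6), and the functions were tested on simulated peaks. Intervals of differences combine those of both shares or medians. Overlapping peaks were joined into merged regions. Regions were named by rule: those in all 4 lists, the 5 highest by mean percentile in Flag, EGS 1 and non-EGS, the 5 highest Flag peaks without Foxa3, the 5 highest in EGS 1 and non-EGS without Flag, and the 3 largest Flag runs, of which there was 1. Libraries and rules were chosen with earlier results of these data known. Alternatives were other overlap rules, stricter lists, merging, other run definitions and leaving out lists. No sequence was read, for want of an mm9 genome.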

Additional observations from a re-analysis of the deposited data

How the results depend on the processing

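No paired analysis was possible because the line has 1 Flag list, so the antibodies cannot share 2 replicate numbers, and the results come from no test. Of 218 alternative values, 172 stayed within the interval of the value reported, 44 moved beyond it and 2 changed direction. With the 300 highest peaks of each list, the Flag share in any Foxa3 list was 19.0%, in EGS 1 15.3% and in non-EGS 6.0%, the non-EGS share in Flag 6.0%, the top minus bottom difference of Flag ranks 31.7 points, the share of Flag in Foxa1 or Foxa2 without Foxa3 40.7%, the differences by Foxa1 or Foxa2 partner 69.9 and 52.6 points, rho 0.109 and the Flag share in runs 0%. With the top-scoring 50% these were 40.5% for Flag in Foxa1 or Foxa2 without Foxa3, 60.8 and 28.9 points by partner, 3.02 points for non-EGS ranks, 17.0 bp for the width difference, 0% in runs and 4.11 points for non-EGS outside minus inside runs. Within 500 bp the Flag share in non-EGS was 24.9%, the non-EGS share in Flag 6.09%, and non-EGS outside minus inside runs 0.62 points. After merging within 1 kb the EGS 1 and non-EGS shares in Flag were 18.1% and 6.65%, the Flag share in runs 0%, and non-EGS outside minus inside runs turned to -1.36 points. Without dense runs the EGS 1 share in Flag was 18.5%. At 150 bp, added later, the Flag share in any Foxa3 list was 28.5%, in non-EGS 18.0%, and the non-EGS share in Flag 3.68%. By width in place of score, the top minus bottom difference was 33.6 points for Flag, 3.25 for non-EGS and -0.35 for EGS 1. With 3 groups it was 34.1 points for Flag and with 10 groups 60.4. Runs of 3 or more peaks held 3.40% of Flag peaks, and runs with a gap of 10 kb 1.81%. With EGS lists of the other lines the share in Foxa1 or Foxa2 without Foxa3 was 21.5%, and the differences by partner 56.2 and 35.2 points.

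Leaving out each Foxa3 library in turn gave 19.3% to 31.8% for the Flag share in any Foxa3 list, 26.2 to 46.1 points for Flag ranks, 36.5 to 71.0 bp for width and -32.1 to -19.4 points for runs. Leaving out a Foxa list of any line gave 26.5% to 43.5% for Foxa1 or Foxa2 without Foxa3, and, by partner, 48.7 to 53.3 points (EGS 1) and 21.95 to 33.6 points (non-EGS). The cause of these shifts was not tested. Flag peaks inside and outside runs could not be compared in the shortened and merged lists, which have no Flag run, nor without dense runs, nor could non-EGS peaks among the 300 highest. Inside the Flag run 7 peaks limit any statement, and EGS 3, with 46 peaks, limits all shares taken over it.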

Other observations

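Some Flag peaks of line 4a3 were also found in adult hepatocytes. Of the 883, 46 (5.21%, 3.84 to 6.89) overlapped a peak of any of the 3 hepatocyte lists, with 15 in the Foxa1 list, 28 in the Foxa2 list and 20 in the Foxa3 list. Those lists hold 166, 244 and 1091 peaks, of which 50%, 28.3% and 51.2% lie in dense runs. No background share is set beside the count, so it is not read as high or low. The 46 peaks stood high in the Flag list, at a median percentile of 85.8, and were wide, with a median of 416 bp. In the top quintile the share was 14.2% (9.41 to 20.3) and in the lowest 1.13% (0.137 to 4.02). Of the 137 Foxa3 EGS 1 peaks in the hepatocyte Foxa3 list, 10 overlapped a Flag peak (7.30%, 3.56 to 13.01), beside 13.96% (12.1 to 16.01) of all 1246 EGS 1 peaks.

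The Flag library of line 4a2, with Foxa2 and Hnf4alpha introduced, gave 21 peaks. Of these, 8 overlapped a Flag peak of line 4a3 (38.1%, 18.1 to 61.6), and 7 of the 8 also overlapped a Foxa3 peak of line 4a3. Another 8 overlapped a Foxa3 peak of line 4a3 and no Flag peak, so that 15 had a Foxa3 peak (71.4%, 47.8 to 88.7). Of the 12815 Foxa1 and Foxa2 regions of lines 4a1 and 4a2, 4.18% held a Flag peak and 6.2% a Foxa3 peak of line 4a3. Of those regions, 9412 were in only 1 of the 6 lists, so they are a loose background for 21 peaks. By chromosome, the share of Flag peaks with a Foxa3 peak lay between 22.0% of 50 on chromosome 4 and 53.3% of 30 on chromosome 16, with 2 of 8 on chromosome X and 0 of 1 on chromosome Y, and the exact intervals of chromosomes 4 and 16 overlap (11.5 to 35.96 and 34.3 to 71.7).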
